A study of Homo sapiens with 12 samples.

Results

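The p38 and JNK stress kinase genes comprised 10 genes of the 63568 gene identifiers in the count table. They were chosen by symbol as the kinases MAP3K5, MAP3K7, MAP2K3, MAP2K4, MAP2K6, MAP2K7, MAPK8, MAPK9, MAPK11 and MAPK14, and each symbol mapped to 1 Ensembl identifier. All 10 passed the filter on low counts, as did 25249 genes in all. They were grouped by their place in the cascade and with earlier results of these samples known. MAP2K6 and MAP3K7 are also genes that the study names as falling with dose in these same samples, so their direction is not independent evidence and counts are given below with and without them.

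RNA-seq was performed on MDA-MB-231 cells, a line of triple negative breast cancer that carried GFP and was otherwise labelled wild type, embedded as droplets in Matrigel, a basement membrane gel. There were 12 samples, described by the study as 2 biological replicates of each of 6 conditions. The untreated cells were taken on day 2 (C1) or day 4 (C2), and the treated cells were taken on day 4 after Paclitaxel, a drug that stabilizes microtubules, had been given, according to the labels, on day 2 at 0.0005, 0.005, 0.05 or 0.5 μM. The gel was digested with collagenase and dispase before RNA extraction in every condition, and a single cell line was used. In such bulk samples, fewer cells that express a gene and less RNA of it per cell cannot be told apart.

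Stress kinase cascades pass a signal through 3 tiers. A MAP3K such as ASK1 (MAP3K5) or TAK1 (MAP3K7) phosphorylates a MAP2K, which in turn phosphorylates the MAPK. MKK3 (MAP2K3) and MKK6 (MAP2K6) act on p38, MKK7 (MAP2K7) acts on JNK, and MKK4 (MAP2K4) can act on both, while JNK1 (MAPK8), JNK2 (MAPK9), p38 alpha (MAPK14) and p38 beta (MAPK11) phosphorylate transcription factors such as c-Jun and ATF2. These cascades respond to cytokines, TGF-β, osmotic and oxidative stress and microtubule drugs, and their activity is set by phosphorylation, which RNA counts do not measure.

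The libraries held 38380629 to 79169121 counts, with C1 replicate 2 the shallowest, so that each member had at least 87 reads in every sample. ESR1 and PGR, which define hormone receptor positive tumours, were under 1 CPM (counts scaled to a common library size) in every sample, ERBB2 lay between 26.6 and 52.4 CPM, and 5 mesenchymal and epithelial markers summed to 1686 to 2319 CPM in untreated and 1565 to 2195 CPM in treated samples. Fibroblast markers summed to 8.95 to 17.0 CPM in untreated and 12.3 to 19.8 CPM in treated samples over 7 genes, 4 of which stayed under 1 CPM in every sample. The summed level of 5 leukocyte and endothelial markers was 0.477 to 1.31 CPM in untreated and 1.87 to 2.53 CPM in treated samples, and 4 of these 5 were under 1 CPM throughout. S phase genes summed to 1236 to 2063 CPM in untreated and 783 to 960 CPM in treated samples, G2 and M phase genes to 1514 to 2346 and 1113 to 1535 CPM, and genes known to respond to tissue digestion and handling to 941 to 1805 and 739 to 1360 CPM. The untreated sums pool both days. Of the 8 G2 and M phase genes, 2 were called higher and 1 lower at 0.5 μM against C2, where 4.36% and 1.96% of all tested genes were. The part of these markers in the member results was not tested.

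Promoter sequences are shown for MAP2K6, MAP3K7 and MAPK9, the members that were called lower both at single doses and in the pooled comparison. Each run holds the 250 bases before the start site farthest upstream in RefSeq on build GRCh38.p14, which lists 2 start sites for MAP2K6, 1 for MAP3K7 and 3 for MAPK9, read 5′ to 3′ on the strand of the gene, with GC boxes (GGGCGG on either strand, the core letters of Sp1 binding sites) in capitals. The MAP2K6 window was chr17:69414447-69414696 on the plus strand, the MAP3K7 window chr6:90587073-90587322 on the minus strand and the MAPK9 window chr5:180292084-180292333 on the minus strand.
MAP2K6: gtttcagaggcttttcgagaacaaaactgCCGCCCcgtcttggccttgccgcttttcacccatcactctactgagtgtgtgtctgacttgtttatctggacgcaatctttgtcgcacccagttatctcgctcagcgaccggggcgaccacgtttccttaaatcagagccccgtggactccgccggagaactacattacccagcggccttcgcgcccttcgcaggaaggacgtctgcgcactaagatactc
MAP3K7: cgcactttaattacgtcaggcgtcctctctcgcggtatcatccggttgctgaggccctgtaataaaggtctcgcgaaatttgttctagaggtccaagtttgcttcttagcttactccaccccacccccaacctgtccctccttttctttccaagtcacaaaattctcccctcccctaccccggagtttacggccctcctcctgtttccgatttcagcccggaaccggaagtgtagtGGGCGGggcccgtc
MAPK9: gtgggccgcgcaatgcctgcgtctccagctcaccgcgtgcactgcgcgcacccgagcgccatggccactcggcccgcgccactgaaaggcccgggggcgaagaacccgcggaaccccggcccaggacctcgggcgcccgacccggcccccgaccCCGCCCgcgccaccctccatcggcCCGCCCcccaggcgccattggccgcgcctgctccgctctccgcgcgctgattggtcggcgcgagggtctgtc

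The MAPK9 window shown was 77.6% G and C and held 2 GC boxes, while the MAP2K6 and MAP3K7 windows were 55.6% and 54.8% G and C and held 1 each. The 10 members had 15 start sites in the table, and 12 of these 15 windows held a GC box, with at least 1 such window for every member, against 42.6% of the 35116 windows of all genes. The AP-1 letters (TGANTCA, both strands) occurred in 1 member window, that of MAP2K3, and in 6.57% of all windows. The CRE letters (TGACGTCA, both strands) occurred in no member window and in 1.65% of all windows. These matches are descriptions of letters and were not set against binding data.

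Expression per kilobase of exon spanned the members widely. MKK3 (MAP2K3) averaged 21.0 CPM per kb over the 12 samples, followed by p38 alpha (MAPK14) at 15.7 and MKK4 (MAP2K4) at 13.3 CPM per kb. MAP3K5, MAPK8 and MAPK9 were close together at 8.12, 8.11 and 7.87 CPM per kb, and MAP2K7 and MAP3K7 lay at 6.44 and 5.70 CPM per kb. The lowest were p38 beta (MAPK11) at 2.78 and MKK6 (MAP2K6) at 0.165 CPM per kb. The last value rests on an exon union of 16.7 kb that includes long isoforms, so the level of a shorter transcript would be underestimated.

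**Figure D1:**
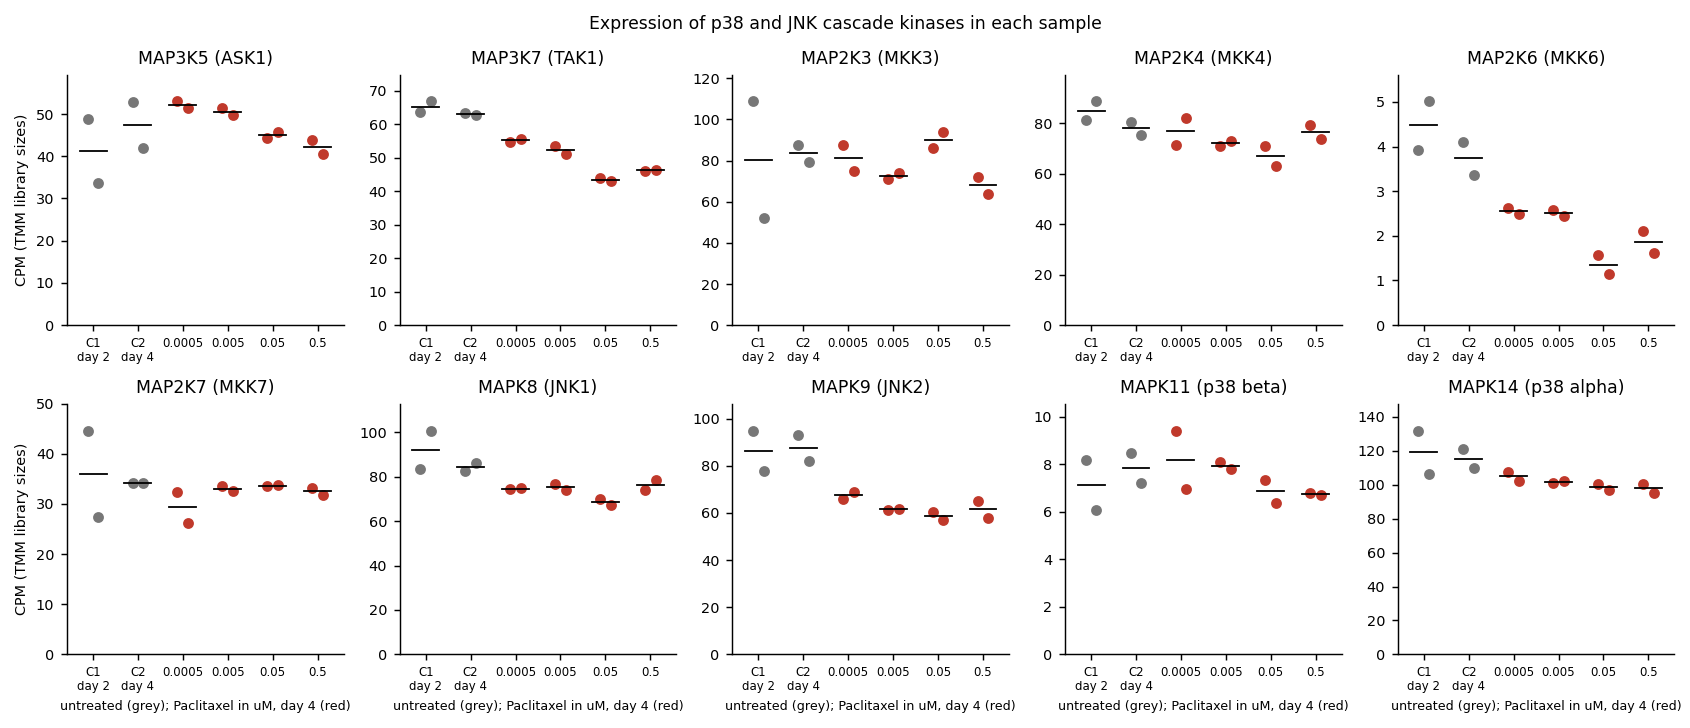
CPM (counts scaled by TMM library sizes) of the 10 kinases in each sample. Every panel has a linear axis from 0, grey points are untreated samples (C1, C2), red points are Paclitaxel samples in order of dose in μM, and black lines are the means of 2 samples. All 8 red points lie below all 4 grey points for MAP3K7, MAP2K6, MAPK8 and MAPK9, and the colours overlap for the other 6.

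In the first tier, TAK1 (MAP3K7), the kinase that TGF-β and cytokine receptors engage through TAB proteins, was lower in treated cells while ASK1 (MAP3K5), which responds to oxidative stress, was not. MAP3K7 (ENSG00000135341, chr6:91223292-91296805 on GRCh37, minus strand) was at 63.7 and 66.9 CPM in C1, 63.5 and 62.8 CPM in C2, 54.9 and 55.6 CPM at 0.0005 μM, 53.7 and 51.0 CPM at 0.005 μM, 43.8 and 43.2 CPM at 0.05 μM, and 46.1 and 46.4 CPM at 0.5 μM. The highest treated value, 55.6 CPM, was below the lowest untreated value of 62.8 CPM, and the replicates of a condition were closer to each other than to the untreated samples. Against C2, MAP3K7 differed by −0.19 on the log2 scale (SE 0.12) at 0.0005 μM and by −0.27 (SE 0.12) at 0.005 μM, neither of which passed the test. It fell by 0.54 (SE 0.12, edgeR quasi-likelihood test, Benjamini-Hochberg adjusted p = 0.0182) at 0.05 μM, and it fell by 0.45 (SE 0.12, edgeR adjusted p = 0.0465) at 0.5 μM. The call at 0.05 μM was lost without either C2 library or either 0.05 μM library, with adjusted p up to 0.141 (edgeR), and also with no filter on low counts. With offsets for GC content and exon length the difference at 0.05 μM was −0.31 (SE 0.084, edgeR adjusted p = 0.0310). The call at 0.5 μM was close to the threshold of 0.05 and was lost when any 1 of the 10 libraries other than those of C1 was left out, with fold changes between −0.49 and −0.44.

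MAP3K5 (ENSG00000197442, chr6:136878184-137114235, minus strand) was at 48.7 and 33.6 CPM in C1 and 52.9 and 42.0 CPM in C2, and its 8 treated samples ranged from 40.6 to 53.0 CPM with a median of 47.8 CPM. The treated and untreated ranges overlapped. The difference from C2 was 0.14 on the log2 scale (SE 0.18) at 0.0005 μM and −0.17 (SE 0.18) at 0.5 μM. Within the treated samples its slope was −0.11 log2 units per 10-fold dose (SE 0.033, edgeR adjusted p = 0.0873), which did not pass.

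In the second tier, MKK6 (MAP2K6), a p38 activator, showed the largest change of the 10 genes, while MKK3, MKK4 and MKK7 did not pass in any comparison when no library was left out. MAP2K6 (ENSG00000108984, chr17:67410838-67550006, plus strand) was at 3.93 and 5.01 CPM in C1, 4.11 and 3.37 CPM in C2, 2.63 and 2.48 CPM at 0.0005 μM, 2.58 and 2.44 CPM at 0.005 μM, 1.57 and 1.14 CPM at 0.05 μM, and 2.10 and 1.62 CPM at 0.5 μM. The highest treated value, 2.63 CPM, was below the lowest untreated value of 3.37 CPM, and the lowest values were those of 0.05 μM rather than of the highest dose.
The difference from C2 was −0.55 on the log2 scale (SE 0.22) at 0.0005 μM and −0.57 (SE 0.22) at 0.005 μM, which did not pass. MAP2K6 fell by 1.47 (SE 0.23, edgeR adjusted p = 0.00326) at 0.05 μM, where its level dropped by 63.8%. At 0.5 μM it fell by 1.003 (SE 0.22, edgeR adjusted p = 0.0237), where its level dropped by 50.1%. These values rest on 87 to 280 reads per library, the fewest of the members. The call at 0.05 μM was kept without any 1 library, while that at 0.5 μM was lost without either C2 library or either 0.5 μM library, with fold changes between −1.24 and −0.84.

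MAP2K3 (ENSG00000034152, chr17:21187984-21218544, plus strand), the other dedicated p38 activator, was at 109 and 52.2 CPM in C1, 87.7 and 79.5 CPM in C2, 87.6 and 74.8 CPM at 0.0005 μM, 71.1 and 73.8 CPM at 0.005 μM, 86.3 and 93.8 CPM at 0.05 μM, and 72.0 and 64.0 CPM at 0.5 μM. Its untreated range enclosed every treated sample, because the 2 libraries of C1 were the highest and the lowest of the 12. MAP2K4 (ENSG00000065559, chr17:11924146-12047147, plus strand) ranged from 63.1 to 82.1 CPM in treated samples (median 72.3 CPM) and was at 81.4, 88.7, 80.7 and 75.2 CPM in the untreated ones. MAP2K7 (ENSG00000076984, chr19:7968728-7979363, plus strand) was at 44.7 and 27.4 CPM in C1, 34.2 and 34.1 CPM in C2, and between 26.2 and 33.7 CPM in treated samples. For these genes the groups overlapped, and the differences from C2 at 0.5 μM were −0.30 (SE 0.25), −0.03 (SE 0.13) and −0.07 (SE 0.20) on the log2 scale. An antisense long noncoding RNA, ENSG00000268149, shares 438 exon bases (8.51%) with MAP2K7, and reads of the pair cannot be told apart unless strand was used in counting, which the sources do not state.

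In the third tier, JNK2 (MAPK9) fell at 0.05 μM and both JNK genes were lower when all treated samples were pooled, while neither p38 gene passed the test. MAPK9 (ENSG00000050748, chr5:179660143-179719099, minus strand) was at 95.0 and 77.8 CPM in C1, 93.2 and 81.9 CPM in C2, 66.0 and 68.8 CPM at 0.0005 μM, 61.3 and 61.9 CPM at 0.005 μM, 60.3 and 56.9 CPM at 0.05 μM, and 65.0 and 58.0 CPM at 0.5 μM. The highest treated value, 68.8 CPM at the smallest dose, was below the lowest untreated value of 77.8 CPM. The difference from C2 was −0.38 on the log2 scale (SE 0.14, edgeR adjusted p = 0.199) at 0.0005 μM and −0.51 (SE 0.14, edgeR adjusted p = 0.0763) at 0.005 μM, neither of which passed. MAPK9 fell by 0.58 (SE 0.14, edgeR adjusted p = 0.0269) at 0.05 μM, and at 0.5 μM it differed by −0.51 (SE 0.14, edgeR adjusted p = 0.0539), just missing the threshold. At 0.05 μM the call was lost without either C2 library, either 0.05 μM library or any 1 of the 4 libraries of the lower doses, whereas at 0.5 μM a call appeared without either C1 library (edgeR adjusted p = 0.00429 and 0.00354). Leaving out a C1 library raised the calls at 0.5 μM over all tested genes from 6.32% to 18.5% and 18.8%, so the gain was not particular to MAPK9.

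MAPK8 (ENSG00000107643, chr10:49514682-49647403, plus strand) was at 83.4 and 101 CPM in C1, 82.4 and 86.2 CPM in C2, and between 67.0 and 78.6 CPM in the 8 treated samples. Treated and untreated samples did not overlap, but no single dose passed the test, and the largest difference from C2 was −0.30 on the log2 scale (SE 0.13, edgeR adjusted p = 0.188) at 0.05 μM. MAPK14 (ENSG00000112062, chr6:35995559-36079013, plus strand) was at 132 and 106 CPM in C1 and 121 and 110 CPM in C2, and its treated samples ranged from 95.2 to 108 CPM with a median of 101 CPM. It overlapped with the untreated samples only through C1 replicate 2, and the differences from C2 were −0.14, −0.19, −0.23 and −0.24 (each SE 0.14) from the lowest to the highest dose. MAPK11 (ENSG00000185386, chr22:50702142-50709196, minus strand) was at 6.09 to 8.50 CPM in untreated and 6.39 to 9.43 CPM in treated samples, and the difference at 0.5 μM was −0.22 (SE 0.19).

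**Figure D2:**
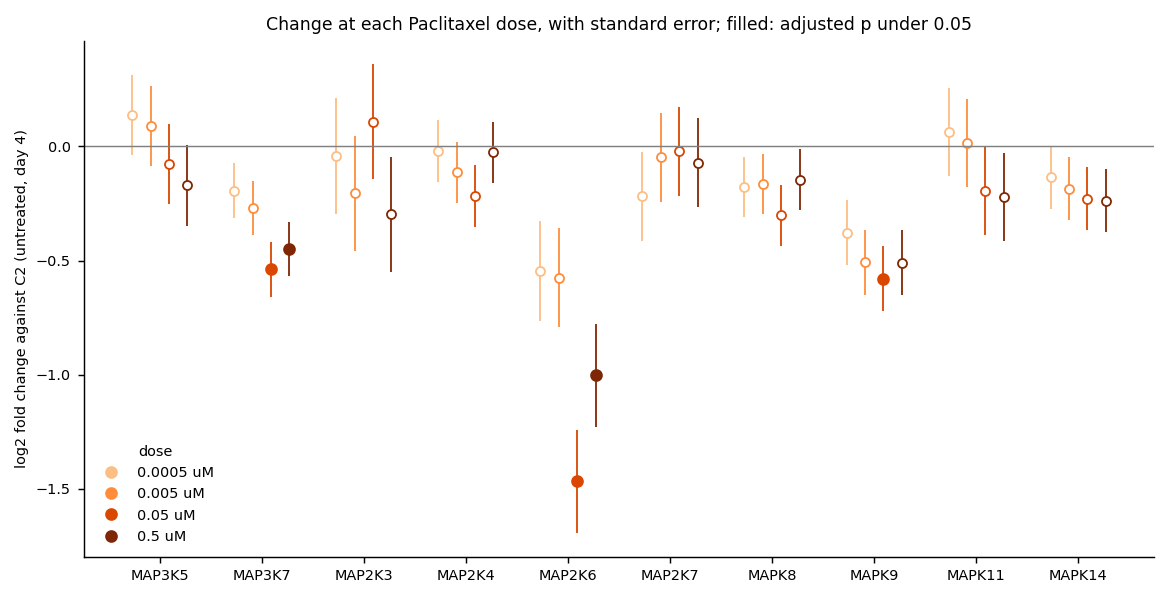
Log2 fold change of each kinase at each Paclitaxel dose against C2, with bars of 1 standard error. Filled points passed an adjusted p-value of 0.05: MAP2K6 and MAP3K7 at 0.05 and 0.5 μM, and MAPK9 at 0.05 μM.

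Read across the members, no kinase was called higher at any dose, where 4.36% of all tested genes were at 0.5 μM. At 0.0005 μM edgeR called 0 of 10 members where 2.34% of all tested genes were called, with 2 members at an unadjusted p under 0.05, as were 17.0% of all tested genes. DESeq2 called 0 members and 4.65% of all tested genes. At 0.005 μM edgeR called 0 of 10 members against 3.28% of all tested genes, with 3 at an unadjusted p under 0.05, as were 18.7% of all tested genes, and DESeq2 called 1, MAPK9, and 5.39% of all tested genes. At 0.05 μM 3 of 10 were called lower where 3.23% of all tested genes were, and without MAP2K6 and MAP3K7 the count was 1 of 8, MAPK9. At 0.5 μM 2 of 10 were called lower where 1.96% of all tested genes were, both of them genes that the study had named, so that edgeR called 0 of the other 8. DESeq2 called 3 at this dose, with MAPK9 added, and 9.18% of all tested genes in either direction. Genes with a mean of at least 5 CPM include every member but MAP2K6. In that class 5.66% were called lower at 0.05 μM and 3.46% at 0.5 μM, against 2 and 1 of the 9 members. The same C2 libraries served as control for every dose, so these counts are not independent of each other.

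The median log2 fold change of the members was −0.16, −0.17, −0.22 and −0.23 from the lowest to the highest dose, while the median of all tested genes stayed between −0.01 and 0.04. Genes with a mean of at least 5 CPM, of which there were 12245 and which include every member but MAP2K6, had medians of −0.04, −0.11, −0.11 and −0.10. Abundant genes were thus shifted downwards under this scaling, and the difference of the member median from that shift was smaller than its distance from 0.

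The slope on log10 dose over the 8 treated samples asks whether the level went on changing from dose to dose. edgeR called 0 of 10 members, against 3.15% of all tested genes, with 4 at an unadjusted p under 0.05 (MAP3K5, MAP3K7, MAP2K6 and MAPK11), as were 18.4% of all tested genes. DESeq2 called 2, MAP3K5 and MAP3K7, and 6.74% of all tested genes. The slope was −0.22 log2 units per 10-fold dose (SE 0.089) for MAP2K6, −0.10 (SE 0.036) for MAP3K7, −0.05 (SE 0.035) for MAPK9 and 0.00 (SE 0.036) for MAPK8. MAP2K7 was the only member with a slope above 0, at 0.05 (SE 0.039).

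Untreated cells on day 4 were compared with those on day 2, the day on which the treated cells received the drug, to see how the genes moved with time alone. None of the 10 members was called by edgeR or DESeq2, where edgeR called 0.325% and DESeq2 1.07% of all tested genes, and 0 members had an unadjusted p under 0.05, against 2524 of all 25249 tested genes. The differences were 0.02 (SE 0.14) for MAPK9, −0.05 (SE 0.12) for MAP3K7, −0.13 (SE 0.13) for MAPK8 and −0.25 (SE 0.22) for MAP2K6 on the log2 scale. C1 replicate 2 stood apart from C1 replicate 1 in MAP2K3, MAP2K7 and MAP3K5. Without C1 replicate 1, MAP3K5 was called higher on day 4 by 0.50 and MAP2K3 by 0.68, in a fit that called 2682 of 26785 tested genes, so these calls rest on which day 2 library is used.

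Pooling the 8 treated and the 4 untreated samples compares more libraries at once, but treats doses as replicates of each other and both days as 1 control. Of the 10 members, 4 were called lower and 0 higher, where 11.3% of all tested genes were called lower and 13.1% higher. Without MAP2K6 and MAP3K7 the count was 2 of 8, MAPK8 and MAPK9. MAP2K6 fell by 0.98 (SE 0.20, edgeR adjusted p = 0.00191), MAPK9 fell by 0.48 (SE 0.087, edgeR adjusted p = 0.000935), MAP3K7 fell by 0.38 (SE 0.091, edgeR adjusted p = 0.00648) and MAPK8 fell by 0.26 (SE 0.085, edgeR adjusted p = 0.0325) on the log2 scale. Treated and untreated levels were 2.07 ± 0.562 (SD, n = 8) and 4.11 ± 0.682 CPM (SD, n = 4) for MAP2K6, and 62.3 ± 4.07 and 87.0 ± 8.40 CPM for MAPK9. For MAP3K7 they were 49.3 ± 5.05 and 64.2 ± 1.82 CPM, and for MAPK8 73.6 ± 3.66 and 88.2 ± 8.53 CPM.

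MAPK14 missed the threshold in the pooled comparison, with a difference of −0.22 (SE 0.084, edgeR adjusted p = 0.0658), and DESeq2 called it (adjusted p = 0.0139), as it did 28.0% of all tested genes in either direction. Without C1 replicate 2 edgeR also called MAPK14 (−0.25, adjusted p = 0.0345). The other differences were −0.16 (SE 0.088) for MAP2K4, −0.13 (SE 0.11) for MAP2K7, −0.08 (SE 0.15) for MAP2K3, −0.02 (SE 0.12) for MAPK11 and 0.10 (SE 0.11) for MAP3K5. The MAPK8 call was lost without C1 replicate 2 (−0.18, edgeR adjusted p = 0.109), without 0.005 μM replicate 2 (−0.27, edgeR adjusted p = 0.0540) and without 0.05 μM replicate 1 (−0.26, edgeR adjusted p = 0.0585), with C2 alone as the control (−0.19, edgeR adjusted p = 0.171) and with no filter on low counts (−0.26, edgeR adjusted p = 0.124). The signs of MAP2K3, MAP2K7 and MAPK11 turned when GC content and length were corrected for or when C1 replicate 1 was left out, so no direction is given for them. The median over the members was −0.19, against −0.002 over all tested genes and −0.14 over genes with a mean of at least 5 CPM.

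All 8 treated samples lay below all 4 untreated samples for 4 of the 10 members, namely MAP3K7, MAP2K6, MAPK8 and MAPK9, as they did for 5.77% of all tested genes. Without the genes that the study had named, MAP2K6 and MAP3K7, this held for 2 of 8. No member lay above, where 1865 of the 25249 tested genes did. Among the genes with a mean of at least 5 CPM, the share without overlap on the low side was 10.5%, and 3 of the 9 members in that class were in it. In the same class 20.4% of genes were called lower in the pooled comparison, against 3 of the 9 members.

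**Figure D3:**
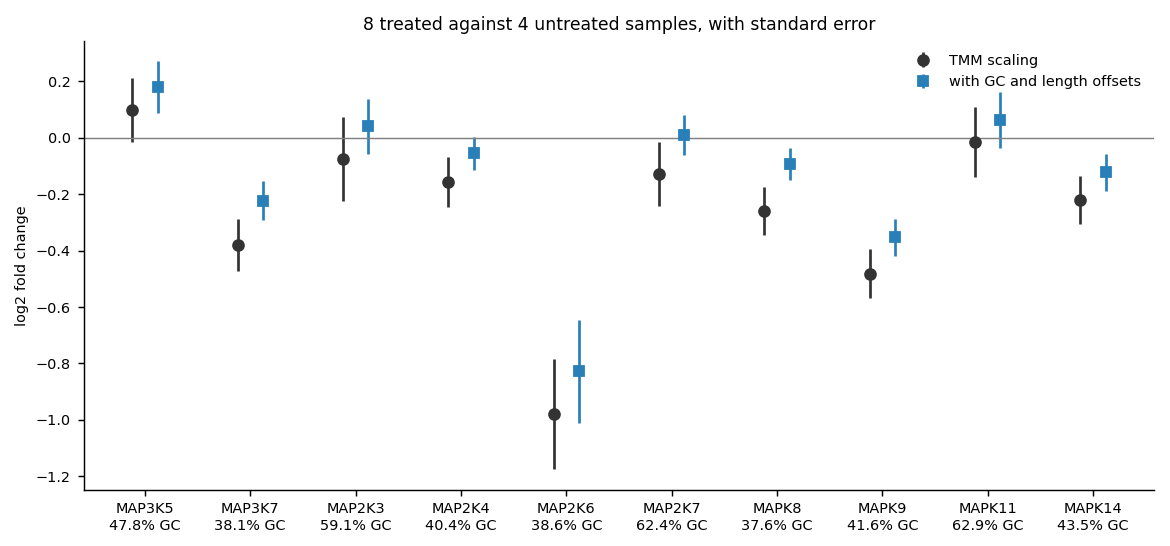
Log2 fold change of each kinase between the 8 treated and 4 untreated samples, with bars of 1 standard error, under TMM scaling (black) and with offsets for GC content and exon length (blue). The GC content of the exons stands below each symbol, and the offsets moved every member upwards, MAPK8 from −0.26 to −0.09.

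The exons of the 4 members called lower held 37.6% to 41.6% G and C, and those of the other members 40.4% to 62.9%. With offsets for GC content and exon length MAP2K6 fell by 0.83, MAPK9 fell by 0.35 and MAP3K7 fell by 0.22 on the log2 scale, and all of these were still called. MAPK8 was not called, with a difference of −0.09 (SE 0.057, edgeR adjusted p = 0.240). The offsets moved genes in general upwards as well. The median of all tested genes went from −0.002 to 0.062, and that of genes with a mean of at least 5 CPM from −0.14 to −0.05. At 0.5 μM the offsets gave −0.88 (SE 0.21, edgeR adjusted p = 0.0227) for MAP2K6, −0.41 (SE 0.11, edgeR adjusted p = 0.0324) for MAPK9 and −0.35 (SE 0.084, edgeR adjusted p = 0.0221) for MAP3K7. With them 2444 of 22268 tested genes were called at this dose, against 1596 of 25249 without, so more calls were not particular to the members.

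Ratios of sister kinases within a sample do not depend on the library size used. The log2 ratio of MAP2K6 to MAP2K3 ranged from −6.37 to −4.78 in treated samples and from −4.79 to −3.38 in untreated samples, so that the groups overlapped narrowly, through 0.005 μM replicate 1 and C1 replicate 1. Its lowest values, −5.78 and −6.37, were those of 0.05 μM. The log2 ratio of MAPK9 to MAPK8 ranged from −0.44 to −0.12 in treated samples and was 0.19 and −0.37 in C1 and 0.18 and −0.07 in C2, where C1 replicate 2 was the sample that overlapped. For MAP2K7 to MAP2K4 the treated range of −1.65 to −0.90 lay within the untreated range of −1.69 to −0.87. For MAPK11 to MAPK14 the means were −3.77 ± 0.140 (SD, n = 8) and −3.97 ± 0.126 (SD, n = 4), with overlapping ranges. No test was run on the ratios.

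**Figure D4:**
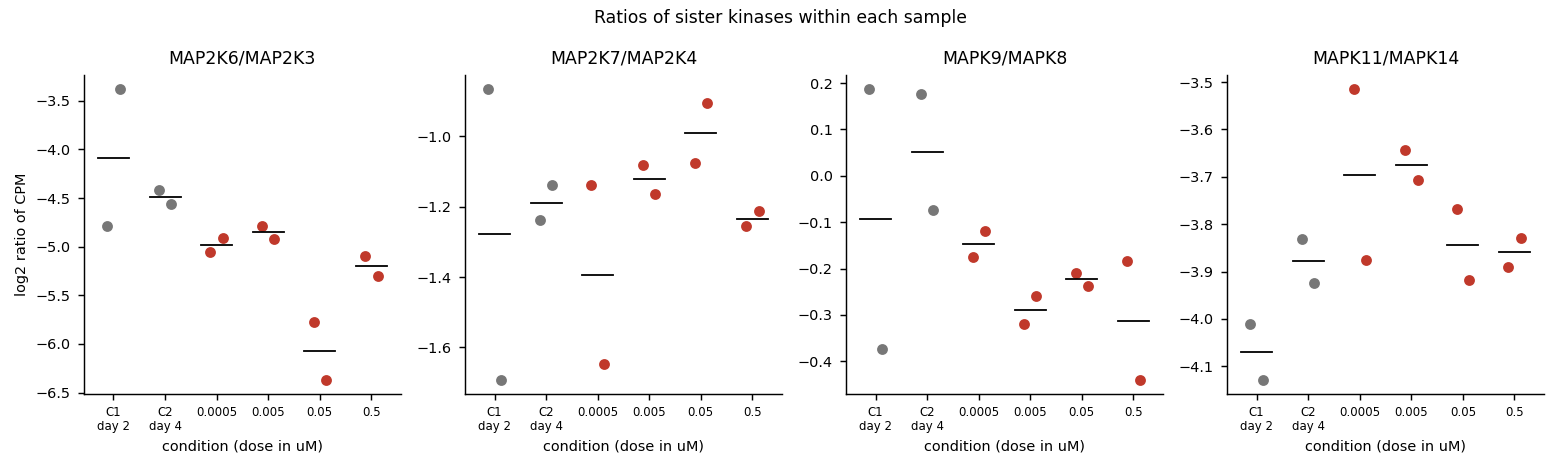
Log2 ratio of CPM between sister kinases in each sample, by condition, with untreated samples in grey, Paclitaxel samples in red and black lines at the mean of 2 samples. The axes do not start at 0 and differ between panels. Treated and untreated ranges overlap in all 4 panels, and in MAPK9/MAPK8 the overlap comes from C1 replicate 2 at −0.37.

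Over the 12 samples, the log2 levels of MAP2K6 and MAP3K7 had the highest correlation of the 45 member pairs (Pearson r = 0.963), followed by MAPK14 and MAPK9 (r = 0.930) and MAPK9 and MAP3K7 (r = 0.869). The median over the pairs was 0.447. Leaving out C1 replicate 2 moved MAPK8 and MAP3K5 from −0.553 to −0.012 and left MAP2K6 and MAP3K7 at 0.954. All pairs share the same libraries and scaling, so these values are descriptions and carry no p-value.

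Among 11091 named genes with a mean of at least 5 CPM, the pattern most like that of MAP2K6 over the 12 samples was that of PIGN (r = 0.979), SLC19A2 (r = 0.976) and DNM1L (r = 0.976). PIGN, an enzyme of GPI anchor synthesis, was at 39.0 to 47.9 CPM in untreated and 23.3 to 35.9 CPM in treated samples. DNM1L, the GTPase of mitochondrial fission, was at 154 to 164 and 112 to 147 CPM, and SLC19A2, a thiamine transporter, at 24.2 to 28.2 and 16.1 to 22.0 CPM. The pattern most like that of MAP3K7 was that of LRRK2 (r = 0.985), MAN2A1 (r = 0.981) and BCAT1 (r = 0.978), which are a kinase, a Golgi mannosidase and an enzyme of branched chain amino acid metabolism. In each of these genes but BCAT1 the treated and untreated ranges were apart, and for BCAT1 they overlapped narrowly at 222 CPM. The genes were picked for likeness to members whose own groups were apart, so this separation follows largely from the choice.

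The other genes of the pathway were taken as 7 lists by role, with 67 genes matched and 66 tested. At 0.5 μM 2 of them were called higher and 2 lower, where 4.36% of all tested genes were called higher and 1.96% lower, and their median log2 fold change was −0.18. DDIT3, the stress transcription factor CHOP whose protein p38 can phosphorylate, was at 6.22 to 14.9 CPM in untreated and 30.8 to 48.1 CPM in treated samples and rose by 1.70 (SE 0.26, edgeR adjusted p = 0.00412). GADD45A, which binds and activates the MAP3K MTK1, was at 29.6 to 37.6 and 61.0 to 94.0 CPM and rose by 0.84 (SE 0.14, edgeR adjusted p = 0.00556). JUND, an AP-1 subunit, fell by 1.35 (SE 0.22, edgeR adjusted p = 0.00556), and DUSP1, the phosphatase that inactivates p38 and JNK, fell by 1.03 (SE 0.24, edgeR adjusted p = 0.0274), both of which are named after their values were seen.

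In the pooled comparison 7 of the 66 were called higher and 15 lower, with a median of −0.10. Over all tested genes 13.1% were called higher and 11.3% lower, and among genes with a mean of at least 5 CPM 20.4% were called lower. Of the 14 further MAP3K genes, MAP3K1 was called higher by 0.36 (SE 0.080) and 4 were called lower, namely MAP3K20, MAP3K3, MAP3K4 and TAOK3, with fold changes from −0.43 to −0.27. MAP3K20, the kinase ZAK that senses stalled ribosomes, was at 114 to 147 CPM in untreated and 80.0 to 119 CPM in treated samples, so its groups overlapped. Of the 15 upstream adaptors and activators, 2 were called higher and 2 lower, and both of the higher ones were GADD45 genes. GADD45A rose by 1.11 (SE 0.13, edgeR adjusted p = 2.6e-05) and GADD45G rose by 1.43 (SE 0.23, edgeR adjusted p = 0.000413), the latter at no more than 0.944 CPM in any sample.

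TAB1, an adaptor that binds and activates TAK1, was at 15.4 to 24.7 CPM in untreated and 10.9 to 15.1 CPM in treated samples and fell by 0.50 (SE 0.13, edgeR adjusted p = 0.00806). It was the only one of the 8 scaffolds and TAK1 binding proteins that was called, and its treated and untreated samples did not overlap, as those of MAP3K7 did not. Of the 3 remaining p38 and JNK kinases, MAPK13 (p38 delta) fell by 0.26 (SE 0.091, edgeR adjusted p = 0.0446). MAPK10 (JNK3) rose by 1.53 (SE 0.33, edgeR adjusted p = 0.00312), at 0.060 to 0.166 CPM in untreated and 0.255 to 0.460 CPM in treated samples, and MAPK12 (p38 gamma) differed by −0.19 (SE 0.098). These kinases, TAB1 and the MAP3K genes above, and MEF2A, RPS6KA4, RPS6KA5 and DUSP16 below, are named after their values were seen.

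Downstream of the kinases, DDIT3 rose by 1.91 (SE 0.18, edgeR adjusted p = 5.41e-06) in the pooled comparison, and 3 of the 9 target transcription factors were called lower, MEF2C, MEF2A and JUND. In that comparison 11.3% of all tested genes were called lower and 13.1% higher. Among genes with a mean of at least 5 CPM, 20.4% were called lower. MEF2C, a p38 substrate, was at 16.0 to 20.9 CPM in untreated and 11.1 to 14.6 CPM in treated samples and fell by 0.53 (SE 0.10, edgeR adjusted p = 0.00129). Among 7 effector kinases 1 was called higher and 2 lower, with the p38 substrates MSK2 (RPS6KA4) and MSK1 (RPS6KA5) as the lower ones. The 10 tested phosphatases of p38 and JNK held 1 called higher and 2 lower. DUSP8, which acts on JNK and p38, rose by 1.06 (SE 0.19, edgeR adjusted p = 0.000988) from 1.70 to 3.49 CPM in untreated to 4.70 to 8.73 CPM in treated samples, and DUSP1 fell by 0.69 (SE 0.15, edgeR adjusted p = 0.00382).

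On dose within the treated samples, JUND and DUSP16 were the 2 pathway genes with a called slope, of −0.30 (SE 0.045) and −0.19 (SE 0.033) log2 units per 10-fold dose, where 2.11% of all tested genes had a called negative slope. AP-1 and other immediate early genes are also induced when cells are handled. Of 8 such handling genes, 6 were called lower and 1 higher at 0.5 μM, where 1.96% and 4.36% of all tested genes were. In the slope 5 were called lower and 0 higher, and JUND was also called lower in both. In treated against untreated samples 2 were called lower and 2 higher, where 11.3% and 13.1% of all tested genes were. FOSB ranged from 191 to 549 CPM in untreated and from 39.3 to 200 CPM in treated samples, ATF3 from 243 to 455 and from 120 to 274 CPM, and EGR1, the one called higher at 0.5 μM, from 74.5 to 148 and from 195 to 503 CPM. Their part in the JUND result was not tested.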

How the data were processed

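The authors trimmed reads with Trimmomatic 0.39, aligned them to GRCh37 with STAR 2.7.5, kept unique alignments and counted reads in exons per gene with Rsubread. The strand setting is not given in the sources used here. The deposited values are these integer counts, not normalized, and 12 of 12 sample files were identical to the table of the series. Symbols were assigned to 55665 identifiers.

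Counts were analysed in R 4.3.3 with edgeR 4.0.16 (TMM scaling, filterByExpr over the 6 conditions, robust quasi-likelihood fits). Tests were two-sided with Benjamini-Hochberg adjustment over all tested genes, and called means an adjusted p-value under 0.05. Dose and day contrasts came from 1 model of the 12 samples (biological coefficient of variation 15.6%, 6 residual degrees of freedom). The slope used the 8 treated samples, and treated against untreated had its own fit. A standard error was obtained as the size of the log2 fold change over the square root of F. TMM library sizes entered the CPM, with a prior count of 2 on the log2 scale. DESeq2 1.42.0, without the hypothesis weighting of the study, was an alternative. The procedure was tested on simulated data.

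The members and gene lists were chosen with earlier results of these data known. Named were all members, the 20 list genes of lowest adjusted p at 0.5 μM or in treated against untreated, genes used as sample checks, and the 3 genes most correlated with MAP2K6 and with MAP3K7. Not all of the 20 are described, and other pathway genes were named after their values were seen, as marked. Some genes of the lists, and 1 list, are not reported here. Alternatives were RLE scaling, no filter beyond 1 count, fits without robust estimation, a block for replicate number, offsets for GC content and length (splines with 6 degrees of freedom, 22268 genes), the samples of a comparison alone, C2 alone as the control, and each library left out. Gene coordinates are from a GENCODE annotation on GRCh37 that may differ from the one used for counting.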

Additional observations from a re-analysis of the deposited data

Results flagged for a closer look

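In MAP2K7 the lowest of the 8 treated samples, 0.0005 μM replicate 2 at 26.2 CPM, was far from the others, which lay at 31.7 to 33.7 CPM. The gap was above the limit of Dixon's test for 8 values. Such gaps were looked for in 20 groups of member values, the treated and the untreated samples of each gene, and chance alone gives about 1 in 20 such groups.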

How the results depend on the processing

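At 0.005 μM 1 member was called, MAPK9, in place of 0 with DESeq2, with GC and length offsets, with these offsets and the replicate block, and with the 4 samples of the comparison alone, where the calls over all tested genes were 1362 of 25249, 1380 of 22268, 1498 of 22268 and 2592 of 23502, against 827 of 25249 as reported. At 0.5 μM the count was 1 in place of 2 with no filter on low counts (MAP3K7 lost, edgeR adjusted p = 0.142). That fit called 2807 of 48909 tested genes, against 1596 of 25249 as reported. The slope on dose called 2 in place of 0 with DESeq2 and with GC and length offsets. These slope fits called 1690 of 25057 and 1343 of 22105 tested genes, against 789 of 25057. Leaving out 1 library at a time gave 0 to 1 calls at 0.0005 and at 0.005 μM (MAPK9 without either C1 library), 1 to 3 at 0.05 μM (1 without either C2 or either 0.05 μM library), 0 to 3 at 0.5 μM (0 without either C2 or either 0.5 μM library), 0 to 2 between the days (2 without C1 replicate 1), 3 to 4 in treated against untreated samples and 0 to 1 in the slope (MAP3K5 without 0.05 μM replicate 2), and 4 to 6 members without overlap (6 without C1 replicate 2, where 18.9% of all genes did not overlap on either side, against 13.2% with all libraries). The share of all tested genes called moved with the same libraries. Without C1 replicate 1 or 2 it was 9.23% and 9.52% at 0.0005 μM and 12.4% and 12.1% at 0.005 μM, and without C2 replicate 1 or 2 it was 0.536% and 0.925%, and 0.316% and 1.13%. At 0.05 μM it was 8.32% with all libraries, 1.19% and 3.11% without a C2 library, and 3.21% and 1.64% without a 0.05 μM library. At 0.5 μM it was 0.480% and 2.12% without a C2 library, and 1.79% and 0.979% without a 0.5 μM library. In treated against untreated samples the share ran from 15.6% to 26.4% without 1 library, against 24.4% with all libraries. In the slope it ran from 0.463% to 3.80%, against 3.15%, and was 3.80% in the fit that called MAP3K5. Where an arm kept 1 library, it was assumed to vary like the other conditions.

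Deviations of same-numbered samples correlated between −0.60 and 0.68 over the 15 pairs of conditions. The correlation was above 0.1 in 8 pairs and below −0.1 in 6, so replicate numbers gave no pairing that held across conditions. With the replicate block 2 members were called at 0.5 μM, MAP2K6 and MAPK9 (−0.51, edgeR adjusted p = 0.0446), while MAP3K7 was not (−0.45, edgeR adjusted p = 0.0520). That fit called 1806 of 25249 tested genes at this dose, against 1596 as reported.

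Of the values of single members at 0.5 μM and in treated against untreated samples, 350 kept their sign and side of the threshold, 23 lost a call, 9 gained one and 18 turned. With GC and length offsets MAP2K4 was at 0.0104 and MAP2K7 at 0.148 at 0.5 μM (0.0103 and 0.1483 with the block added), and in treated against untreated samples MAP2K3 was at 0.0409 (0.0447), MAP2K7 at 0.0098 (0.01) and MAPK11 at 0.0628 (0.0628). Without 1 library the ranges were −0.3393 to 0.0023 for MAP3K5 and −0.1147 to 0.0241 for MAP2K4 at 0.5 μM, and −0.2208 to 0.0852 for MAP2K3, −0.2109 to 0.0033 for MAP2K7 and −0.0828 to 0.0439 for MAPK11 in treated against untreated samples. None of these passed the test, and the cause was not tested. MAP2K6, MAPK9 and MAP3K7 stayed called lower in treated against untreated samples under all 20 alternatives run.

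Over all genes, called counts ran from 618 to 2624 at 0.0005 μM (592 as reported), 838 to 2592 at 0.005 μM (827), 2095 to 2902 at 0.05 μM (2100), 1611 to 2807 at 0.5 μM (1596), 0 to 390 between the days (82), 3408 to 7070 in treated against untreated samples (6155) and 421 to 1690 in the slope (789), libraries left out aside. With 2 libraries per condition the standard error of a member at a single dose was 0.12 to 0.25, and differences near that size were not detectable.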
